A study of Mus musculus with 8 samples.

Results

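Elf3, the keratins Krt7, Krt8, Krt18, Krt19 and Krt23, and the bile duct genes Epcam, Sox9 and Cd24a were followed in mouse livers. The mice had diet-induced metabolic dysfunction-associated steatohepatitis (MASH). The 9 genes were taken by their Ensembl identifiers from the 52636 genes of the count tables, and all 9 passed the filter on low counts that left 15248 genes. They were picked with the difference between the treated and the control livers already known, Elf3 being among the genes with the smallest p-values, so their differences are described here and are no independent evidence. The question of the study was how gene expression in the liver differs when hepatocytes carry extra alanine-glyoxylate aminotransferase (AGXT), the peroxisomal enzyme that detoxifies glyoxylate.

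The 8 libraries came from 8 male wild-type C57BL/6J mice, 4 treated with AAV8-GFP and 4 with AAV8-AGXT. At 7 weeks of age every mouse received 2e+11 viral genomes of adeno-associated virus 8, a vector that reaches the liver, with either green fluorescent protein or human AGXT behind the thyroxine-binding globulin (TBG) promoter, which is active in hepatocytes. From 8 weeks of age all mice of both groups ate the high-fat, high-cholesterol, high-fructose MASH diet, and livers were taken after 24 weeks of it. There was no chow-fed group among these libraries, so no value here shows a level in healthy liver, and the bile duct cells were not a target of the promoter. The libraries are named by the mouse numbers of the labels (303, 311, 314 and 315 with AAV8-GFP, and 308, 309, 316 and 319 with AAV8-AGXT).

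Between 17095433 and 28780140 read pairs per library fell on genes. Mouse 308 stood apart in the AAV8-AGXT group, with 56.3% of its pairs on genes against 62.4% to 69.1% in the other libraries, and mouse 315 stood apart in the AAV8-GFP group by low levels of bile duct genes, so values are also given without each of them. Mouse Agxt, the counterpart of the delivered human gene, had 148 to 180 CPM (counts scaled to library size) with AAV8-GFP and 201 to 405 CPM with AAV8-AGXT; how reads of the human transgene align to it is not known. The 5 hepatocyte markers summed to 42172 to 50368 CPM with AAV8-GFP and 50981 to 72636 CPM with AAV8-AGXT, and none of them was at 0 in any library. Alb (means of 29998 and 37995 CPM) and Apoa1 (11425 and 15659 CPM) held most of these sums. All 5 had a higher mean with AAV8-AGXT, but none passed an adjusted p of 0.05 in edgeR's test across all genes. Library sizes were adjusted by edgeR's trimmed mean of M values, and each level below is such a CPM value.

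Keratins are the intermediate filaments of epithelia and assemble as pairs of a type II and a type I chain. Hepatocytes hold the pair of Krt8 and Krt18, to which bile duct cells (cholangiocytes) add Krt7 and Krt19, and the duct cells also carry Epcam, Sox9 and Cd24a. In injured liver, small duct-like strings of such cells spread from the portal tract, which is known as the ductular reaction, and hepatocytes under stress can take up some of the same genes. Elf3 is a transcription factor of the ETS family that is found in epithelia and is induced by inflammatory cytokines.

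Promoter sequences, from 250 bases before to 50 bases after the start site, were found for 6 of the 9 genes in the RefSeq annotation of GRCm38.p6. The 4 windows below belong to Elf3 and Krt8, whose groups differed past the test used across all genes, to Krt18, the partner of Krt8, and to Krt23, the one member with a higher mean in AAV8-AGXT mice. They are Elf3 at chr1:135258423-135258722 (minus strand), Krt8 at chr15:102004293-102004592 (minus), Krt18 at chr15:102027966-102028265 (plus) and Krt23 at chr11:99493071-99493370 (minus), each written along its gene, with capitals where any of 3 searched motifs matched.
Elf3: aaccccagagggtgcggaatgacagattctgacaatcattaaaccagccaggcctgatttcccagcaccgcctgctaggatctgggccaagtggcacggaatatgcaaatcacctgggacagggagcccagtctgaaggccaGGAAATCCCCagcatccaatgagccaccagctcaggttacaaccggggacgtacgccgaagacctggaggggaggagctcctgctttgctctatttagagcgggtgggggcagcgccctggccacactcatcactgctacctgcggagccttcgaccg
Krt8: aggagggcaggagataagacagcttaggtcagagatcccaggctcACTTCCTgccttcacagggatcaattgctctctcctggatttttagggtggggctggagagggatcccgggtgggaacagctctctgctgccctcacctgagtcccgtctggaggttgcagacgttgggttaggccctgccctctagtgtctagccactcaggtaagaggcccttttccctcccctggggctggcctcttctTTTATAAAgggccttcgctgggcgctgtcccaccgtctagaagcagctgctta
Krt18: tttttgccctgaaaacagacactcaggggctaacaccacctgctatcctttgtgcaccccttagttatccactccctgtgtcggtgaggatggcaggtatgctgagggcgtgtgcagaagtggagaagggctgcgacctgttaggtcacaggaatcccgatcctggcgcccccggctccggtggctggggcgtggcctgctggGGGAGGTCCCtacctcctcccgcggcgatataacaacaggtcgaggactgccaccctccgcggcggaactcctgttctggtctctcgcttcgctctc
Krt23: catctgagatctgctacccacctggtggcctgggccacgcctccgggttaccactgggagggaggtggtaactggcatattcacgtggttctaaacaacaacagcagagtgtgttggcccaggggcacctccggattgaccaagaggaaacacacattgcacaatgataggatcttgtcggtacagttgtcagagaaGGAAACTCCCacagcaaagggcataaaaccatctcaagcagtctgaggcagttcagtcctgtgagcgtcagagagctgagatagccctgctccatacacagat
The motifs were the TATA box (TATAAA), a core bound by ETS factors (AGGAAGT) and the 10-letter NF-κB consensus, each searched on both strands. NF-κB matches stood at -108 to -99 of the Elf3 start site, at -47 to -38 in Krt18 and at -53 to -44 in Krt23, thus in 3 of the 6 windows against 8.46% of 32851 mouse promoter windows. Krt8 alone among the 6 held the ETS core, at -205 to -199 on the opposite strand, against 9.35% of all windows, and it alone held TATAAA, which began at -1 and whose reverse match lay over it, against 13.6%. Positions count from the RefSeq start sites. In the 4 genes shown, these sites lie inside the gene spans given below, so positions counted from the ends of those spans would differ. A match is a string of letters and no measured site.

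Elf3 (ENSMUSG00000003051, chr1:135253575-135258568, minus strand, GRCm38) showed the widest difference of the 9 genes. Its levels with AAV8-GFP were 6.01, 8.23, 10.2 and 5.29 CPM in mice 303, 311, 314 and 315, and with AAV8-AGXT 0.690, 2.28, 1.13 and 1.04 CPM in mice 308, 309, 316 and 319. Every AAV8-AGXT liver lay below every AAV8-GFP liver, and the AAV8-AGXT mean was 17.3% of the AAV8-GFP mean. The difference was -2.53 ± 0.36 (log2 fold change ± SE, n = 4 per group), which is 5.77-fold lower, and it rested on 120 to 269 read pairs per AAV8-GFP library and 10 to 38 per AAV8-AGXT library. The antisense gene Gm26642 shares 162 exon bases with Elf3 and had 2.85 ± 0.52 (SD, n = 4) and 2.42 ± 0.73 CPM in the respective groups, a log2 difference of -0.24 that did not pass the edgeR test (adjusted p = 0.573). The strand setting of the read counting is not given in the sources used here, so reads in the shared bases cannot be assigned with certainty.

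Krt8 (ENSMUSG00000049382, chr15:101996698-102004482, minus strand) and Krt18 (ENSMUSG00000023043, chr15:102028180-102032027, plus strand) are neighbours that point away from each other, and they make the keratin pair of the hepatocyte. Krt8 stood at 725, 755, 949 and 1042 CPM in the AAV8-GFP mice in the order above and at 427, 532, 538 and 632 CPM in the AAV8-AGXT mice. Krt18 stood at 627, 624, 639 and 702 CPM with AAV8-GFP and at 515, 429, 450 and 580 CPM with AAV8-AGXT. Neither gene overlapped between the groups, with Krt8 at -0.71 ± 0.17 and Krt18 at -0.39 ± 0.13 (log2 fold change ± SE). Mouse 315 had the highest level of both genes, and mouse 319 had the highest of the AAV8-AGXT group. Taken per kilobase of transcript, the ratio of Krt8 to Krt18 was 0.849 to 1.09 in the AAV8-GFP livers and 0.608 to 0.910 in the AAV8-AGXT livers, ranges that overlap.

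The keratins of the bile duct were lower on average in the AAV8-AGXT livers, but the groups overlapped. Krt7 (ENSMUSG00000023039, chr15:101411043-101430313), the type II duct keratin, was at 5.74, 8.45, 7.84 and 3.18 CPM with AAV8-GFP and at 0.828, 3.61, 2.98 and 2.36 CPM with AAV8-AGXT, a log2 fold change of -1.36 ± 0.42. Krt19 (ENSMUSG00000020911, chr11:100140810-100148665), its type I counterpart, was at 12.1, 11.6, 12.6 and 3.62 CPM against 2.21, 7.09, 5.39 and 3.49 CPM, a log2 fold change of -1.13 ± 0.43. In both, mouse 315 lay inside the AAV8-AGXT range while the other 3 AAV8-GFP livers lay above it, and mouse 308 was the lowest of all 8.

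Epcam and Cd24a are surface proteins of duct and progenitor-like cells, and both were lowest in mouse 315 with AAV8-GFP and in mouse 308 with AAV8-AGXT, as the duct keratins were. Epcam (ENSMUSG00000045394, chr17:87635979-87651129), a homophilic adhesion molecule, was at 19.6, 25.3, 23.2 and 6.97 CPM with AAV8-GFP and at 2.69, 12.6, 8.58 and 5.66 CPM with AAV8-AGXT, a log2 fold change of -1.34 ± 0.47. Cd24a (ENSMUSG00000047139, chr10:43578284-43584265), a lipid-anchored glycoprotein, was at 17.2, 23.7, 26.0 and 6.18 CPM against 2.76, 12.2, 8.83 and 6.84 CPM, a log2 fold change of -1.25 ± 0.47. Here too, mouse 315 was the only AAV8-GFP liver within the AAV8-AGXT range. Cd24a is also carried by neutrophils, B cells and red cell precursors, whose markers moved in different ways. The 5 neutrophil markers summed to 20.5 to 32.1 CPM with AAV8-GFP and 6.77 to 21.8 CPM with AAV8-AGXT, with 4 of the 5 lower on average. The 4 B cell markers summed to 3.75 to 9.12 and 3.73 to 6.42 CPM, with 3 lower on average, and the 4 red cell precursor markers to 32.6 to 56.5 and 53.7 to 73.0 CPM, with 1 lower. None of these 13 markers was at 0 in every library, and their part in the Cd24a level was not tested.

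Sox9 (ENSMUSG00000000567, chr11:112782224-112787760), a transcription factor of duct and progenitor-like cells, was at 10.6, 15.6, 18.9 and 9.70 CPM with AAV8-GFP and at 8.01, 9.92, 6.47 and 4.91 CPM with AAV8-AGXT. The groups overlapped by mice 315 and 309 only, and the log2 fold change was -0.91 ± 0.27. Unlike the duct keratins, Sox9 was lowest in mouse 319 and not in mouse 308.

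Krt23 (ENSMUSG00000006777, chr11:99477974-99493137), a type I keratin described in stressed liver, was the only member with a higher mean in the AAV8-AGXT group. Its levels were 7.58, 8.94, 6.97 and 13.7 CPM with AAV8-GFP and 29.8, 16.2, 12.4 and 4.77 CPM with AAV8-AGXT. The AAV8-AGXT livers held both the highest and the lowest value, and the log2 fold change of 0.76 ± 0.45 fell to 0.24 without mouse 308 and reached 1.07 without mouse 319. Mouse 308 thus had the highest Krt23 and the lowest Krt7, Krt19, Epcam and Cd24a, and the ratio of Krt23 to Krt19 was 13.5 there against 1.36 to 2.30 in the rest of its group and 0.551 to 3.78 with AAV8-GFP.

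**Figure D1:**
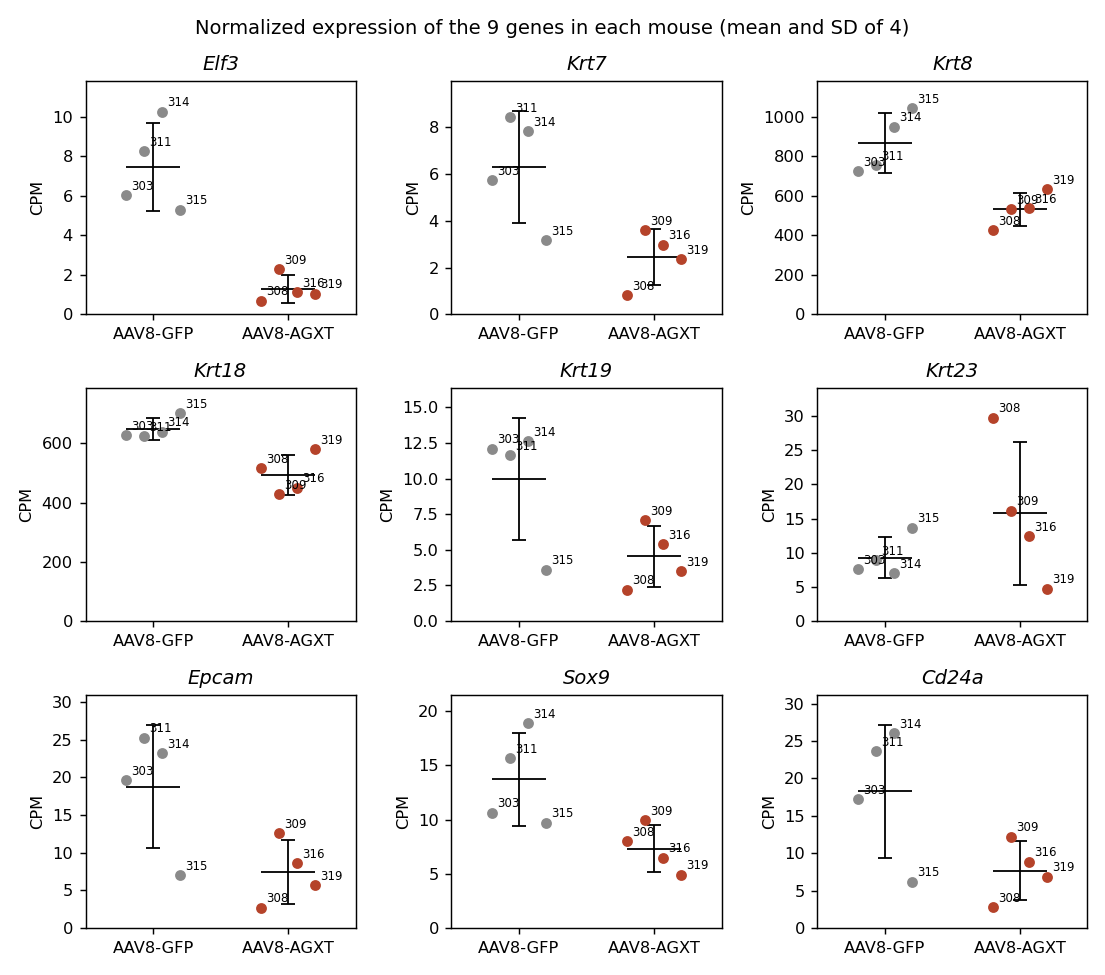
CPM of each of the 9 genes (vertical axes, each starting at 0) in every mouse, with the mouse number beside each point and the mean and SD of the 4 mice of each group as bars. Elf3, Krt8 and Krt18 do not overlap between the groups, mouse 315 drops into the AAV8-AGXT range for Krt7, Krt19, Epcam and Cd24a, and mouse 308 carries the highest Krt23 at 29.8 CPM.

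Counted over the members, 8 of the 9 had a log2 fold change below 0, with a median of -1.13 beside 0.02 over all tested genes. Elf3 and Krt8, 2 of the 9, fell past an adjusted p of 0.05 in edgeR's quasi-likelihood test, in which 1.90% of all tested genes were called lower, 2.45% higher and 4.35% in either direction. The lower levels of Elf3, Krt8 and Krt18 made 3 of 9 that did not overlap, beside 7.63% of all tested genes that were lower and 8.93% that were higher without overlap. DESeq2, run as an alternative, called 7 of the 9, all lower, and 14.0% of its tested genes in either direction. As the members were picked on this contrast, nothing is read from these counts. The Elf3 call was lost without mouse 311, 314 or 319 and the Krt8 call without any of the 8 mice, while the direction of every member was kept in all 14 alternatives. Without mouse 315 the log2 fold changes of Krt7, Krt19, Epcam and Cd24a were -1.57, -1.41, -1.61 and -1.53, and without mouse 308 they were -1.10, -0.93, -1.09 and -1.0. For Elf3 the same omissions gave -2.66 and -2.36, for Krt8 -0.60 and -0.63, for Krt18 -0.35 and -0.43 and for Sox9 -1.04 and -0.97. Scaling to total counts moved the median of all tested genes to -0.22, and it moved Krt18 to -0.64.

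**Figure D2:**
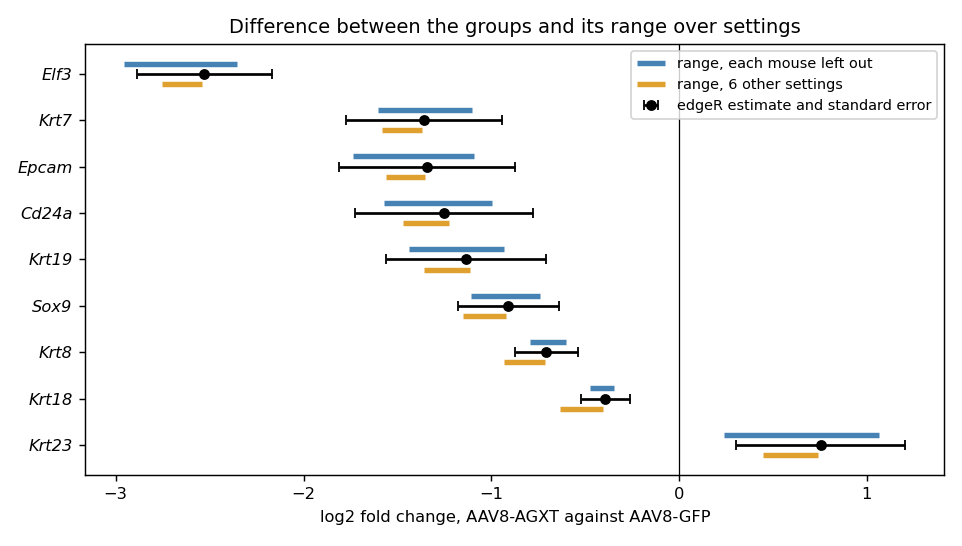
Log2 fold change of AAV8-AGXT against AAV8-GFP for each of the 9 genes (points, with the standard error from edgeR), the range when each of the 8 mice is left out (upper bars) and the range over 6 other settings (lower bars). Elf3 lies at -2.53, the duct genes between -0.91 and -1.36, Krt8 and Krt18 nearer to 0, and Krt23 at 0.76 with the widest relative range.

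Among themselves the members differed greatly in level. Per kilobase of the longest coding transcript, Krt18 and Krt8 stood at 451 ± 25.3 and 443 ± 78.0 CPM per kb with AAV8-GFP (SD, n = 4) and overlapped each other, far above the next gene, Cd24a at 10.1 ± 4.89. Below it came Epcam at 9.20, Krt19 at 6.34, Krt23 at 5.93, Elf3 at 3.55 and Sox9 at 3.32 CPM per kb, each overlapping its neighbour, with Krt7 lowest at 1.54. With AAV8-AGXT, Krt18 at 343 and Krt8 at 272 CPM per kb still led and overlapped, and Krt23 came next at 10.1 ± 6.68. Cd24a, Epcam, Krt19 and Sox9 followed at 4.22, 3.62, 2.88 and 1.77, and Elf3 and Krt7 closed the order at 0.614 and 0.597, overlapping each other. The transcript used for Krt7 is long, at 4094 bases, which lowers its value per kilobase.

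The keratin family as a whole was nearly the hepatocyte pair. Of 54 keratin genes in the tables, 33 had no read in any library and 7 were tested, of which 5 are members. Krt8 and Krt18 together made 96.3% to 98.8% of all keratin CPM in every liver. All keratins summed to 1381 to 1769 CPM with AAV8-GFP and to 978 to 1226 CPM with AAV8-AGXT. The other 2 that were tested, Krt10 and Krt79, known from skin, did not pass the test, with Krt10 at 2.40 ± 0.89 and 2.15 ± 0.53 CPM (SD, n = 4) and Krt79 at 0.313 ± 0.182 and 0.541 ± 0.274 CPM in the respective groups. Among keratins below the filter the highest value in any single library was that of Krt80, at 0.625 CPM.

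Within the groups, the members fell into sets that moved together from mouse to mouse. After removal of each group's mean, the log2 CPM of Krt7, Krt19, Epcam and Cd24a correlated at 0.90 to 0.99 over the 8 mice, and Elf3 correlated with these 4 at 0.79 to 0.85. Krt18 ran against them at -0.56 to -0.72, Krt8 lay between -0.20 and 0.16, Krt23 was at -0.39 to -0.57, and Sox9 at 0.36 to 0.51. These values describe 8 points that share library, depth and cell make-up across genes, and they carry no p. In each gene of the block, mice 315 and 308 lay furthest below their group means, at -0.88 to -1.36 and -0.88 to -1.29. No correlation was computed without these mice. The summed level of Krt7, Krt19, Epcam and Cd24a was 54.7, 69.0, 69.7 and 19.9 CPM in the AAV8-GFP mice and 8.49, 35.5, 25.8 and 18.4 CPM in the AAV8-AGXT mice. In these bulk samples, fewer cells of a type and less RNA per cell cannot be told apart.

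**Figure D3:**
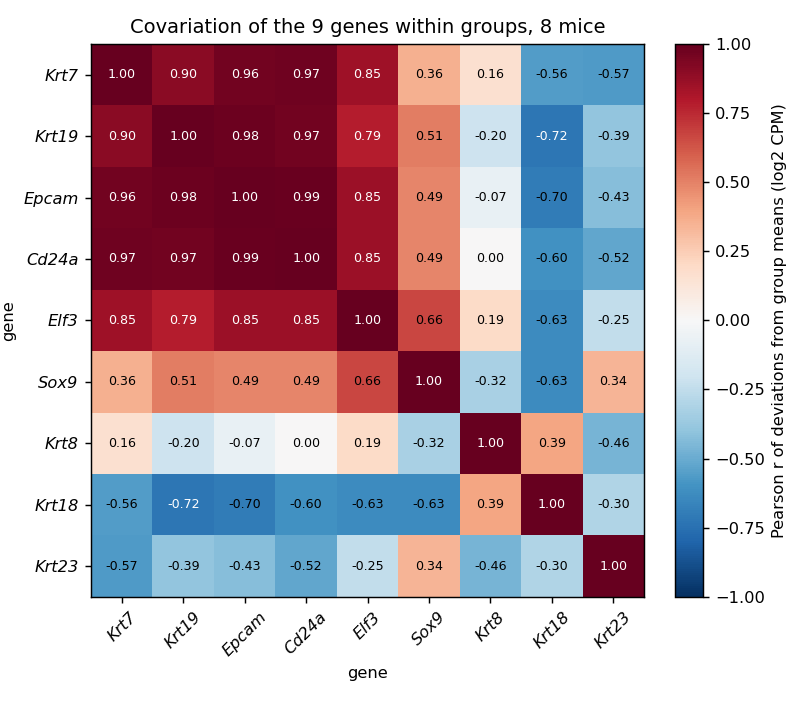
Pearson r between members (both axes) of the deviations of log2 CPM from the group means over 8 mice, from -1 (blue) to 1 (red). Krt7, Krt19, Epcam and Cd24a form a block at 0.90 to 0.99 that Elf3 joins at 0.79 to 0.85, whereas Krt8, Krt18 and Krt23 stand outside it.

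In mouse 315 Elf3 was less low than the duct block. Its 5.29 CPM was still the lowest of the AAV8-GFP group, at -0.44 from the group mean (log2 CPM), beside -0.88 to -1.36 for the block. The ratio of Elf3 to Epcam was 0.759 there against 0.306, 0.326 and 0.441 in the other AAV8-GFP livers. With AAV8-AGXT the ratio was 0.256, 0.181, 0.132 and 0.183, below every AAV8-GFP liver. It was highest of that group in mouse 308, also low in the block, where Elf3 rested on 10 read pairs. The ratio was chosen after the values were seen and was not tested.

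Of 15239 other tested genes, those whose deviations were most like Krt19 over the 8 mice included Anxa13 (r = 0.998), Src (0.987), Gas8 (0.986) and Egflam (0.985). The genes most like Elf3 were Asz1 (0.997), Casp12 (0.984), Erbb4 (0.974), Gca (0.963) and Abca9 (0.963). For Krt23 they were Gm13131 (0.977), Leo1 (0.974), 5430430B14Rik (0.969), Rnf32 (0.964) and Zfp280d (0.963). These are the highest of 15239 values over 8 mice for each gene, and they carry no p.

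Other markers of the bile duct, listed apart from the members, had a median log2 fold change of -0.75, with 21 of 26 tested genes below 0 beside 47.7% of all tested genes. In the edgeR test 2 of the 26 (7.69%) fell and none rose, beside 1.90% called lower and 4.35% in either direction among all tested genes. Tm4sf4, a tetraspanin-like membrane protein, was at 210, 217, 258 and 271 CPM with AAV8-GFP and at 129, 178, 166 and 132 CPM with AAV8-AGXT (log2 fold change -0.66 ± 0.15, edgeR adjusted p = 0.0426). Ddr1, a collagen receptor kinase, was at 19.5, 24.9, 27.2 and 12.7 against 3.45, 12.1, 8.47 and 7.69 CPM (-1.40 ± 0.34, edgeR adjusted p = 0.0495). Both were free of overlap. In the AAV8-GFP group Tm4sf4 was highest in mouse 315, where Krt7, Krt19, Epcam and Cd24a were lowest, whereas Ddr1 was lowest there. Sctr, the secretin receptor of duct cells, did not pass (-1.49 ± 0.40, edgeR adjusted p = 0.0641). Spp1, the matrix protein osteopontin, had the highest level of the list and did not pass either (edgeR adjusted p = 0.0704). It was at 513, 611, 611 and 201 CPM against 60.3, 239, 216 and 113 CPM. The markers above 0, named for their direction, were Onecut1 (2.66 ± 0.98), Aqp1 (0.46), Onecut2 (0.22), Lgals4 (0.15) and Slc4a2 (0.02), and none passed. Onecut1 (edgeR adjusted p = 0.126) was at 2.15, 5.30, 2.63 and 0.970 CPM against 1.38, 57.2, 6.88 and 5.47 CPM, highest in mouse 309.

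Mouse 315 was the lowest AAV8-GFP liver for 18 of these 26 genes and for 6 of the 9 members, and mouse 308 was the lowest AAV8-AGXT liver for 18 of 26 and 6 of 9. The 8 cholangiocyte markers, 4 of them members, summed to 253 to 712 CPM with AAV8-GFP and 106 to 303 CPM with AAV8-AGXT, all 8 being lower on average and none at 0 throughout. Spp1 alone made 79.4% to 85.8% of that sum with AAV8-GFP and 56.8% to 80.7% with AAV8-AGXT. The other 7 summed to 52.1 to 101 CPM and 41.7 to 63.6 CPM, ranges that overlap. Mesothelium, which shares Krt7, Krt8, Krt18 and Krt19, was faint: its 5 markers summed to 1.72 to 10.7 and 1.66 to 5.05 CPM, all 5 lower on average. Of the 5 gallbladder markers, none of them lower on average, Gata4, which is not particular to the gallbladder, made 98.2% to 99.8% of the sum of 21.9 to 31.9 and 18.4 to 34.2 CPM. The other 4, Anxa10, Cldn18, Dmbt1 and Muc5b, were at 0 to 0.276 CPM in every library and were too low to be tested. The 5 pancreas and gut markers summed to 10.8 to 17.8 and 9.98 to 16.2 CPM, 3 lower on average, with Cdx2 and Cpa1 at 0 in every library. The part of mesothelium in the keratin levels was not tested.

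**Figure D4:**
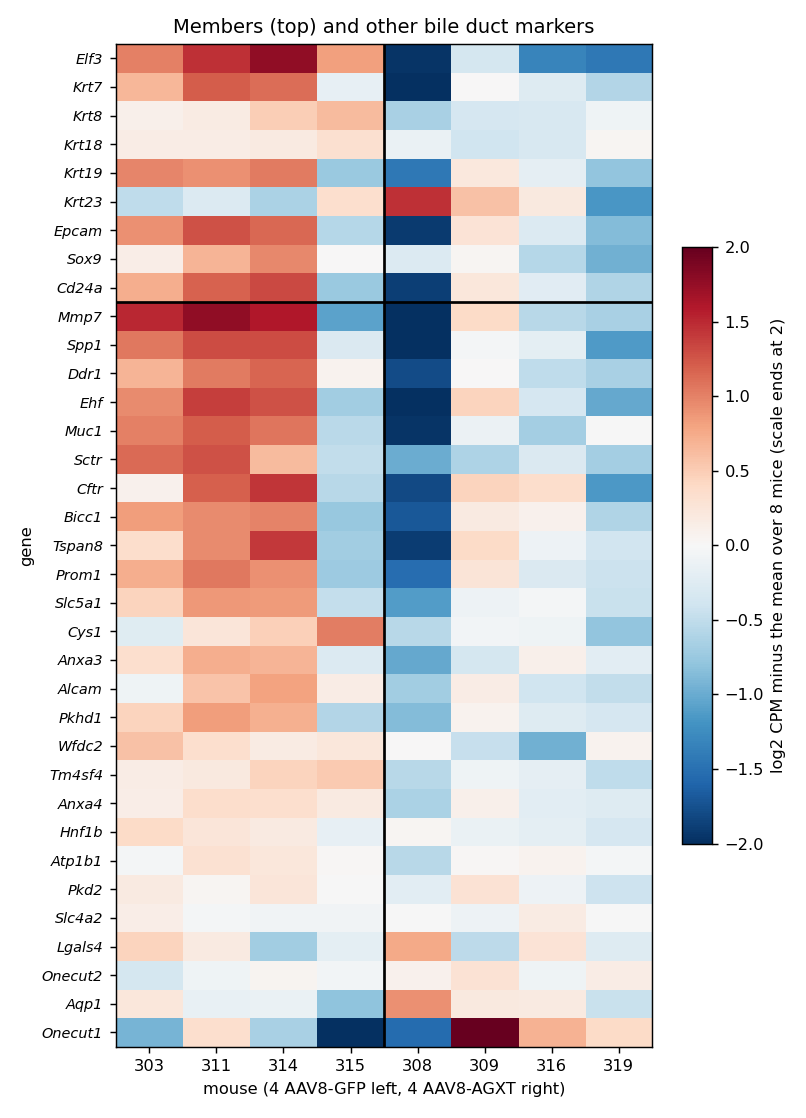
Log2 CPM of the 9 members (above the line) and 26 other bile duct markers (below it) as the difference from each gene's mean over 8 mice, with the colour scale ending at 2 in either direction, by mouse (columns). The 3 columns of mice 303, 311 and 314 are red for most duct genes, mouse 315 is blue for many of them though not for Elf3 or Krt8, and mouse 308 is the darkest blue for most.

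Junction and adhesion genes of epithelia, among them the claudins that seal tight junctions, had a median log2 fold change of -0.47 over 27 tested genes, 22 of them below 0. In the edgeR test 1 of the 27 (3.70%) rose and none fell, beside 4.35% called in either direction among all tested genes. The one that rose was Cldn12, at 35.5, 35.2, 42.5 and 44.9 CPM with AAV8-GFP and 62.5, 56.5, 55.8 and 53.9 CPM with AAV8-AGXT (0.53 ± 0.11, edgeR adjusted p = 0.0363), a call lost when libraries were scaled to total counts (0.30, adjusted p = 0.0847). Marveld2, the tricellular junction protein tricellulin, and Cldn6, a claudin of embryonic epithelia, had values of -0.47 ± 0.13 and -1.80 ± 0.49 and did not pass (edgeR adjusted p = 0.0655 and 0.0666).

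Desmosome and plakin genes, whose products anchor keratin filaments, had a median of -0.25 over 18 tested genes. Beside 1.90% of all tested genes called lower and 4.35% in either direction, 2 of the 18 (11.1%) fell in the edgeR test. Both are filament proteins of other kinds. Lmna, which encodes the nuclear lamins A and C, was at 129 ± 7.60 CPM with AAV8-GFP and 93.3 ± 10.1 CPM with AAV8-AGXT (SD, n = 4 each; -0.47 ± 0.11, edgeR adjusted p = 0.0450). Vim, the mesenchymal filament vimentin, was at 98.4 ± 16.3 and 49.0 ± 16.1 CPM (-1.0 ± 0.23, edgeR adjusted p = 0.0461). Des, the desmin of muscle and stellate cells, was at 14.1 ± 2.52 and 9.99 ± 2.16 CPM and did not pass (edgeR adjusted p = 0.135). The 4 stellate cell markers summed to 232 to 315 and 157 to 349 CPM.

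Of the 21 other ETS family factors tested, 12 lay below 0 and the median was -0.21. Beside 4.35% of all tested genes called in either direction, 1 of the 21 (4.76%) fell in the edgeR test. This was Ets2, a broadly expressed nuclear target of growth factor signalling, at 73.3 ± 3.09 CPM with AAV8-GFP and 53.8 ± 6.53 CPM with AAV8-AGXT (SD, n = 4 each; -0.44 ± 0.10, edgeR adjusted p = 0.0465). Spib and Spi1, factors of lymphoid and myeloid cells, did not pass, with -1.24 ± 0.33 and -0.94 ± 0.34 (edgeR adjusted p = 0.0599 and 0.117). Ehf, the ETS factor closest to Elf3 in its epithelial expression, was named after its values were seen and held 7.54, 10.1, 9.46 and 2.34 CPM against 0.897, 5.29, 3.03 and 1.84 CPM, an overlap by mouse 315 (edgeR adjusted p = 0.134).

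Of 12 genes described as Elf3 targets, 7 were tested, all below 0 with a median of -1.0. Beside 1.90% of all tested genes called lower and 4.35% in either direction, 1 of the 7 (14.3%) fell in the edgeR test. Sprr1a, a cornified envelope protein that is also made by injured cells, was at 6.09, 6.18, 9.87 and 12.4 CPM with AAV8-GFP and at 0, 1.38, 1.39 and 0.897 CPM with AAV8-AGXT (-3.19 ± 0.57, edgeR adjusted p = 0.0303). Mouse 315, low in duct genes, had the highest Sprr1a of all livers. Mmp13, an interstitial collagenase, was at 4.35 ± 0.57 and 1.49 ± 0.99 CPM (SD, n = 4 each) and Spint1, an inhibitor of epithelial serine proteases, at 7.02 ± 2.86 and 3.51 ± 1.13 CPM, neither passing (edgeR adjusted p = 0.0659 and 0.127).

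Genes of the Notch and YAP pathways and of biliary fate had a median of -0.25 over 30 tested genes. None passed the edgeR test, beside 4.35% of all tested genes called in either direction. DESeq2 called 2 of the 30, beside 14.0% of its tested genes in either direction. The 3 with the smallest p were Tgfb2, a transforming growth factor (-0.99 ± 0.31, edgeR adjusted p = 0.0843), Prox1, a hepatocyte fate factor (0.56 ± 0.20, edgeR adjusted p = 0.117), and Klf6, an injury-induced zinc finger factor (-0.97 ± 0.35, edgeR adjusted p = 0.119).

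Among genes raised in injured and progenitor-like hepatocytes, 6 of 20 tested genes fell and none rose, beside 1.90% called lower among all tested genes, and the median was -0.90. Anxa2, a membrane-binding annexin, was at 220, 226, 313 and 251 CPM with AAV8-GFP and at 65.7, 125, 135 and 86.8 CPM with AAV8-AGXT (-1.29 ± 0.23, edgeR adjusted p = 0.0294). Tnfrsf12a, the receptor for TWEAK, a cytokine that drives the ductular reaction, was at 71.5, 62.4, 62.6 and 43.0 against 18.8, 24.6, 32.7 and 32.9 CPM (-1.13 ± 0.20, edgeR adjusted p = 0.0309). Cdkn1a, the cell cycle inhibitor p21, was at 142, 149, 127 and 149 against 81.7, 96.1, 67.8 and 48.6 CPM (-0.95 ± 0.19, edgeR adjusted p = 0.0349). In these 3 genes no liver of one group reached the range of the other, mouse 315 included. The calcium-binding proteins S100a6 (-1.71 ± 0.35, edgeR adjusted p = 0.0363) and S100a11 (-1.63 ± 0.35, edgeR adjusted p = 0.0388) and the tubulin Tubb6 (-0.61 ± 0.14, edgeR adjusted p = 0.0465) fell as well. Lists overlap in part, Spp1 and Prom1 being on the duct list too, and the calls on all lists depended on single mice. With each of the 8 mice left out in turn, Anxa2 and Sprr1a passed in 5 fits, Tnfrsf12a in 4, S100a6 in 3, Cdkn1a, S100a11, Cldn12, Ddr1 and Vim in 2, Tm4sf4 and Ets2 in 1, and Lmna and Tubb6 in none. All 13 lost the call without mouse 311, where edgeR gave the highest adjusted p of the alternatives, 0.115 to 0.164.

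**Figure D5:**
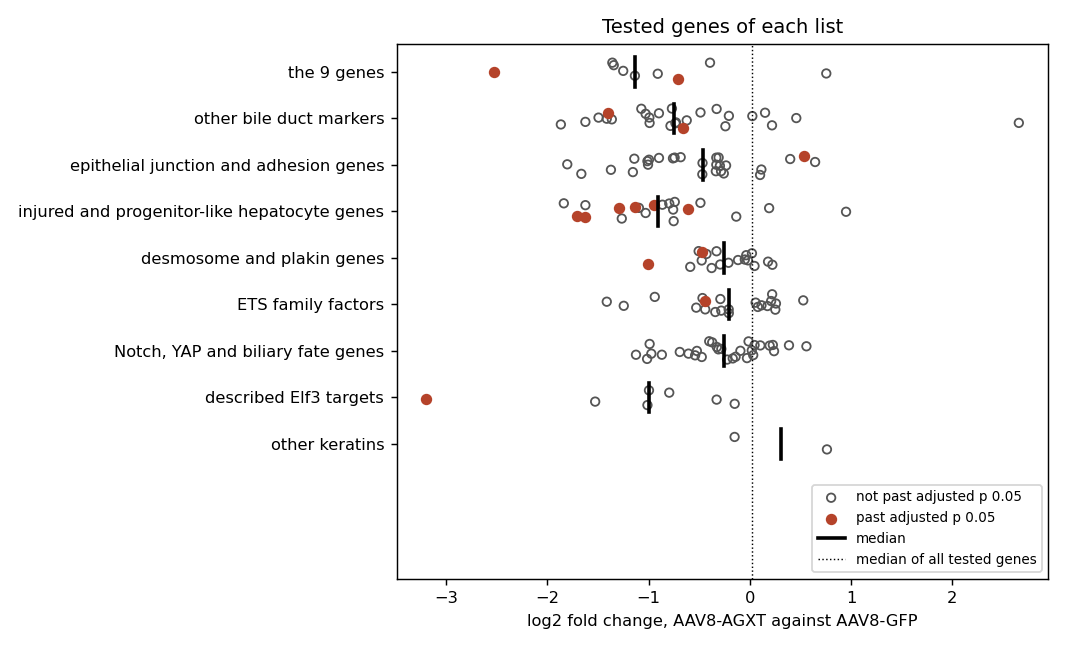
Log2 fold change of AAV8-AGXT against AAV8-GFP (horizontal axis) for the tested genes of each list, with a bar at each list's median and a dotted line at the median of all tested genes. Filled points passed adjusted p 0.05 in edgeR: 2 of the 9 members and 6 injured and progenitor-like hepatocyte genes, with most other points open and left of 0.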

How the data were processed

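Livers of 8 mice were profiled by stranded, paired-end mRNA sequencing, 1 library per mouse. The authors deposited raw read-pair counts per Ensembl gene for each library, made with HTSeq after FastQC 0.11.8, Trimmomatic 0.35 and HISAT2 2.1.0.13 on GRCm38, per the submitters' processing notes. The strand and overlap options of HTSeq are not given in the sources used here. Read pairs that no gene received were left out of library sizes, and 56.3% to 69.1% of the tallied pairs per library fell on genes. Of 52636 gene identifiers, 52489 matched GENCODE M21 for symbols and positions.

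Counts were filtered with filterByExpr and scaled by the trimmed mean of M values in edgeR 4.0.16 (R 4.3.3). The AAV8-AGXT and AAV8-GFP groups (n = 4 each) were compared by the quasi-likelihood F-test with Benjamini-Hochberg adjustment over 15248 genes, with calls made below 0.05. Correlations used log2 CPM with a prior count of 2. DESeq2 1.42.0, limma 3.58.1 (voom), other scalings and filters, and each mouse left out were alternatives, and the fit was tested on simulated counts. Named genes were all members, the called genes of each list up to 6, and otherwise the smallest p until 3 were named, with the 5 genes most like Elf3, Krt19 and Krt23. Of these, 1 gene is not reported here. The members and the gene lists were chosen with earlier results of these data known. Labels give 1 number per mouse and no batch.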

Additional observations from a re-analysis of the deposited data

Results flagged for a closer look

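The 4 values of each group were checked for a single distant sample in 70 gene and group sets, and 3 passed Dixon's critical value, while chance flags about 1 in 20 groups. Krt19 was distant in AAV8-GFP mouse 315, at 3.62 CPM beside 11.6 to 12.6 CPM in the other 3 mice. Prox1 was distant in AAV8-GFP mouse 311, at 59.3 CPM, below the other 3. Krt79 was distant in AAV8-GFP mouse 303, at 0.586 CPM, above the other 3.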

How the results depend on the processing

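The log2 fold change of each of the 9 genes kept its direction in all 14 alternatives, and the median over them stayed between -1.44 and -0.97. The number of calls was less stable. With DESeq2, 2131 of 15218 genes were called instead of 664, 1077 higher and 1054 lower. Among them were 7 of the 9 members, 10 duct markers, 4 ETS factors, 2 Notch, YAP and biliary fate genes and 2 described Elf3 targets, all lower. Its 10 junction genes were 8 lower and 2 higher, and its 10 injured and progenitor-like hepatocyte genes were 9 lower and 1 higher. Scaling to total counts gave 1001 calls, 144 higher and 857 lower, against 374 higher and 290 lower, with 4 members, 5 duct markers, 7 junction genes and 2 ETS factors. Without a filter on low counts there were 4 duct markers, 2 junction genes, 0 ETS factors and 2 Elf3 targets, and with at least 10 counts in every mouse 1 duct marker and 0 Elf3 targets. The size factors of DESeq2 left 1 duct marker, and limma-voom gave 2 Elf3 targets. With 1 mouse left out, the genes called ranged from 2 (without mouse 311) to 643, with 14 and 15 without mice 319 and 314. The calls ranged from 0 to 2 among members, 0 to 6 duct markers, 0 to 5 junction genes, 0 to 1 desmosome and plakin genes, 0 to 1 ETS factors, 0 to 1 Notch, YAP and biliary fate genes, 0 to 3 Elf3 targets, 0 to 5 injured and progenitor-like hepatocyte genes and 0 other keratins. Krt10 turned from -0.15 to 0.14 without mouse 315 and ranged from -0.31 to 0.14 as each mouse was left out. The causes were not tested. No paired analysis was possible because each mouse has a number of its own and no number is shared between the groups.

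With 4 mice per group, the low genes are the least certain: Elf3 rests on 10 read pairs in mouse 308 and Krt7 on 12. Elf3, Krt7 and Krt8 each share exon bases with a gene on the opposite strand. Standard errors cover the spread between these mice, from 1 library each.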
